A study of Homo sapiens with 6 samples.

Results

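IFI6, IFI27, IFI35, IFI44, IFI44L, NMI, XAF1, CMPK2, LGALS3BP and RTP4 are interferon-stimulated genes. They were chosen by symbol, with earlier results of these data known, and all 10 were found among the 17187 gene symbols measured. The series asks how CD8+ T cells bear on ferroptosis in tumour cells, and its comparison is between HT-1080 cells without and with interferon gamma (IFNg). HT-1080 is an established human fibrosarcoma line, here unedited (labelled WT) and from ATCC, and both groups were grown in EMEM. The control group was given PBS and the other group recombinant IFNg at 10 ng/ml for 8 h, with 3 libraries in each. Whether each library stands for its own culture is not in the labels, so p-values measure only the spread between these libraries, which may be technical.

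Interferons reach these genes by routes that share components. IFNg signals through the kinases JAK1 and JAK2 to the gamma-activated site (GAS) in promoters. Type I interferons lead to a complex with STAT2 and IRF9, which binds the interferon-stimulated response element (ISRE), and IRF1, itself induced by IFNg, binds similar sequence. Many of the genes described here are known as type I interferon responders in antiviral defence.

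The promoter sequences are shown because the letters of these elements differ between the genes. Windows from 250 bases before to 50 bases after annotated starts were taken from RefSeq (GRCh38.p14), where all 10 symbols matched. The ISRE core searched was GAAANNGAAA on both strands (TTTCNNTTTC on the other), and the GAS core was TTCNNNGAA, which reads the same on both strands. The cores can overlap, as they do in IFI27. Capitals mark the matches, and each sequence is written 5′ to 3′ on the gene's own strand. Where an annotated protein-coding exon covered the site, at most 30 bases are given, so that 1 of the 2 matches in RTP4 is shown and the GAS match of NMI is not, and IFI44L was stopped at such an exon.
IFI6 (chr1:27672251-27672373, minus strand): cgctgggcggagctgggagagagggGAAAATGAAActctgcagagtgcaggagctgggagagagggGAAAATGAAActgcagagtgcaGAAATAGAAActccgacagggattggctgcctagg
IFI27 (chr14:94110603-94110675, plus strand): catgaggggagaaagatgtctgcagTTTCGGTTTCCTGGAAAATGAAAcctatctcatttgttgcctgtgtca
IFI44 (chr1:78649746-78649788, plus strand): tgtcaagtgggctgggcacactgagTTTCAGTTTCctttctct
IFI44L (chr1:78620259-78620402, plus strand): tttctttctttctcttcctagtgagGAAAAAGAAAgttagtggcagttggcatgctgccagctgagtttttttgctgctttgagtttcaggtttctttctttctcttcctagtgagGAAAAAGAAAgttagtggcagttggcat
IFI35 (chr17:43006752-43006780, plus strand): aggcagggatTTCACGGAAatgaaagtgg
NMI (chr2:151289812-151289841, minus strand): ttaaagcagtTTTCTTTTTCactgtctttt
LGALS3BP (chr17:78979962-78979991, minus strand): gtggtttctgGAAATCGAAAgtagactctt
RTP4 (chr3:187368333-187368362, plus strand): tccatacacaGAAACAGAAActgaaccgaa

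The ISRE core was present in a window of 7 of the 10 genes, and of 4.38% of the 27305 symbols with a window (3.57% of all 35116 windows). IFI6 held 3 matches, IFI27, IFI44L and RTP4 held 2 each, and IFI44, NMI and LGALS3BP held 1 each. The GAS core was present in 3 of the 10 genes (IFI27, IFI35 and NMI) and in 9.38% of all symbols (7.66% of windows), and the NMI match lay after the start. IFI35 had only the GAS core. XAF1 and CMPK2 had neither core in any of their windows, which says only that these letters are not there. The sequences of IFI44L and IFI6 are internally repeated. In IFI44L a run of 85 bases occurred again 91 bases further on, so its 2 matches lie in copies of the same sequence. In IFI6 a run of 29 bases recurred after 41 bases. These matches are descriptions of sequence, and binding was not measured.

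The values are normalised read counts, that is, whole reads divided by a size factor for each library. They are not divided by gene length. Libraries held 59556948 to 83501954 reads, and 1 read was worth 0.835 to 1.16 normalised counts. The third library of each group was set off from the other 4, at 16.2 (IFNg) and 24.3 (control) on the second principal component (17.2% of variance) against -12.5 to -7.58. Each change is therefore also given for libraries 1 and 2 alone, and as the difference between IFNg 3 and control 3, which has no test. Vimentin (VIM), a mesenchymal marker, was abundant (380457 ± 44482 in control), while NT5E and S100A4 from the same list of 9 measured markers were low (37.8 ± 31.9 and 63.6 ± 17.5). The rest of the list, FN1, CD44, SPARC, COL6A1, COL6A2 and PLAU, had control means from 8021 (COL6A2) to 131064 (CD44). In that list 1 gene, the urokinase gene PLAU, was lower in IFNg (limma adjusted p = 0.00709). That PLAU call was lost without control 2 (0.0558), IFNg 1 (0.0697) or IFNg 2 (0.0669), and without a variance trend (0.117). The leukocyte gene PTPRC had 68 reads over all 6 libraries. The summed level of the 6 leukocyte markers measured was 9950 to 15799 in control and 8824 to 14701 in IFNg, mostly from CD68. CD3E and CD14 had 0 reads in every control and 32 and 28 reads in IFNg. In limma 0 of the 4 testable leukocyte markers passed (0 also at an unadjusted p under 0.05), edgeR called 0 of 2, and DESeq2 called 0 of 6, with 1 higher unadjusted. Of the epithelial and endothelial markers, limma could test 2 each and called 0 (1 epithelial marker higher and 0 endothelial unadjusted), and edgeR and DESeq2 called 0. The keratin gene KRT8, at 16193 ± 2730 in control and 19916 ± 879 in IFNg, was called higher in limma without control 3 (adjusted p = 0.00872) and with libraries 1 and 2 alone (0.00525), against 0.198 with all 6. KRT18, the other testable epithelial marker, was 10710 ± 1765 in control and 11344 ± 1760 in IFNg (limma adjusted p = 0.842). The part of these markers in the results was not tested.

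For all 10 genes the lowest IFNg value lay above the highest control value, which held for 10.7% of the 15546 genes tested, while for 0 of the 10, and 9.28% of all, the order was the opposite. By limma, 9 of the 10 rose at an adjusted p under 0.05, against 3.27% of all genes tested. Of these, 8 were raised at least 2-fold, against 1.77%. The 10 were chosen with earlier results of these data known, so the contrast with all genes is not an independent test. The count tests called all 10 higher, where edgeR called 3.47% and DESeq2 4.67% of their genes. None was lower (0 by limma against 1.05% of all genes, also 0 at an unadjusted p under 0.05, and 0 by edgeR and DESeq2). The median log2 difference of the 10 was 2.53, the same with IFI44L at the lower bound of its fold, and that of all genes tested was -0.01. All 10 passed the filter on low values, but IFI44L, with no control value above 0, and RTP4, with only 2 control libraries above the minimum of 0.5, did so through their IFNg libraries. The log2 differences fell into a set of 3 genes at 5.98 to 7.45 (RTP4, IFI44L and XAF1) and 7 genes at 0.50 to 2.86. The 95% intervals of XAF1 (4.90 to 7.06) and CMPK2 (2.20 to 3.53), which are next to each other in this order, did not overlap. All other neighbours in the order had overlapping intervals. The set of 3 depends on the pseudocount. With 10 added in place of 1, IFI44L stood at 3.53, nearer to CMPK2 (2.77) than to RTP4 (5.38) or XAF1 (5.40).

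**Figure D1:**
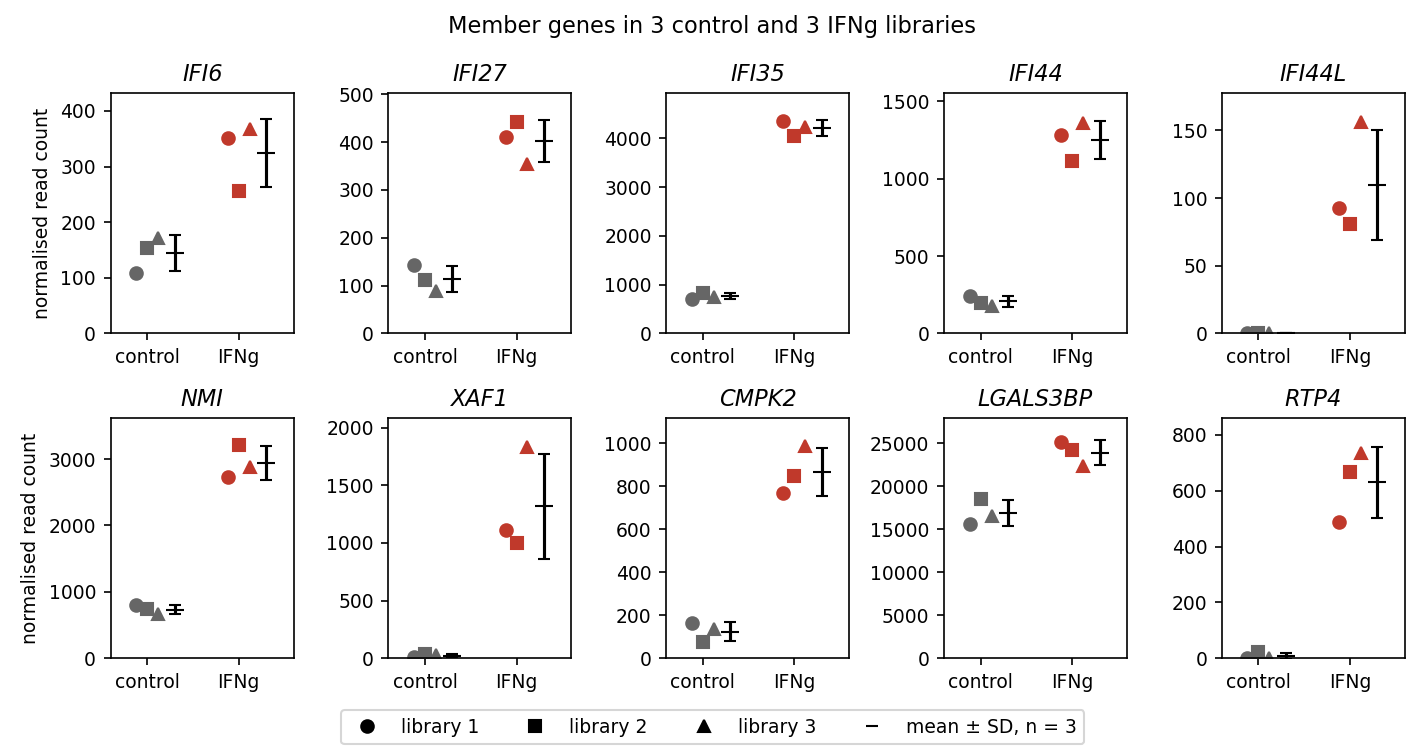
Normalised read count (y axis, linear from 0) of each of the 10 genes in the control (grey) and IFNg (red) libraries. Symbols give the library number, and black bars the mean ± SD (n = 3). In every panel all IFNg libraries lie above all control libraries, with the narrowest gap in LGALS3BP and in IFI44L no read in any control.

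**Figure D2:**
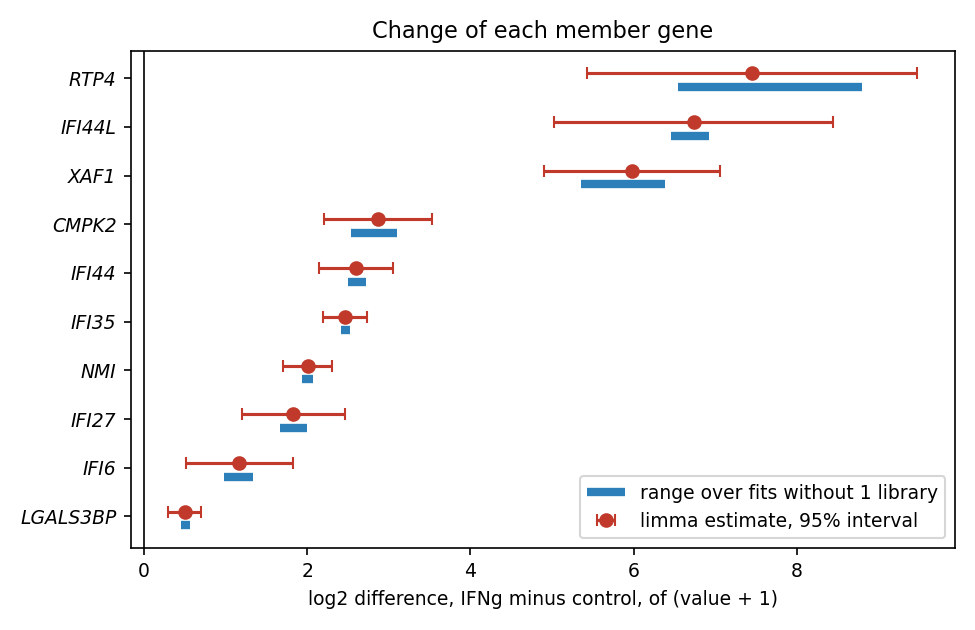
Log2 difference of value + 1, IFNg minus control (x axis), for each gene. Red points are limma estimates with 95% intervals, and blue bars span the estimates when each library in turn is left out. RTP4, IFI44L and XAF1 stand at 5.98 to 7.45 and the other 7 genes at 0.50 to 2.86.

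IFI6 and IFI27 encode small hydrophobic proteins of the FAM14 family found at mitochondria, of which IFI6 is known for opposing apoptosis. IFI6 measured 109, 154 and 171 in control 1, 2 and 3 and 352, 255 and 367 in IFNg 1, 2 and 3. The groups did not overlap, but IFNg 2 lay only 1.49 times above control 3. The IFI6 log2 difference was 1.17 ± 0.30 (SE; limma adjusted p = 0.0504), just outside the threshold. It did pass in the count tests on the recovered reads (edgeR adjusted p = 0.0370, DESeq2 0.00491) and in limma without control 3 (0.0319). In all, IFI6 was called in 6 of 16 alternative fits. Leaving out any library other than control 3 gave limma adjusted p of 0.0705 to 0.196, and a fit without a variance trend gave 0.107. Libraries 1 and 2 alone gave 1.20 (adjusted p = 0.0600), and the libraries numbered 3 gave 1.10.

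IFI27 measured 142, 111 and 88.6 in the controls and 410, 442 and 354 in IFNg. IFNg libraries were 3.53 times as high on average, and the lowest was 2.49 times the highest control. On the log2 scale IFI27 rose by 1.83 ± 0.29 (limma adjusted p = 0.00251), and it passed without each library in turn (adjusted p up to 0.0235). Libraries 1 and 2 alone gave 1.75 (0.00370), and the libraries numbered 3 gave 1.99. The log2 ratio of IFI27 to IFI6 moved from -0.34 ± 0.67 to 0.32 ± 0.43 (SD, n = 3 each), a change of 0.66 with overlapping groups (2-sided exact permutation test, p = 0.3, also 0.3 adjusted over the 3 ratios compared). The FAM14 relatives that flank IFI27 on chromosome 14 did not pass the test. IFI27L1 was 250 ± 69.1 in control and 305 ± 49.5 in IFNg, and IFI27L2 was 917 ± 147 and 904 ± 124 (limma adjusted p = 0.687 and 0.980).

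IFI44 and IFI44L are adjacent genes of the same family on chromosome 1, with products in the cytoplasm. IFI44 measured 243, 200 and 178 in the controls and 1283, 1115 and 1356 in IFNg, so that the groups were far apart. Its log2 difference was 2.60 ± 0.21 (limma adjusted p = 5.93e-06), a 6.05-fold ratio of the group means. IFI44 gave 2.44 in libraries 1 and 2 alone and 2.92 in the libraries numbered 3.

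IFI44L had 0 reads in each of the 3 control libraries. In IFNg it measured 92.9, 80.6 and 156, from 100, 78 and 135 reads. Against a floor of 3 reads over the control group, IFI44L was at least 113-fold higher. The floor covers counting error only, and the fitted log2 difference of 6.73 ± 0.78 (limma adjusted p = 0.000199) depends on the pseudocount, from 3.53 with 10 added to 7.73 with 0.5. IFI44L gave 6.45 in libraries 1 and 2 alone and 7.30 in the libraries numbered 3. The ratios of IFI44L to IFI44 did not overlap between groups and were higher with IFNg (2-sided exact permutation test, p = 0.1, the smallest that 3 against 3 allows; 0.15 adjusted over the 3 ratios compared). The size of that change is not stable, because control IFI44L is set by the pseudocount: it was 4.14 with 1, 5.13 with 0.5 and 0.99 with 10 added. PTGFR and TTLL7 were the nearest genes matched by symbol on either side of the pair, at distances not given here. Their log2 differences were -0.02 and 0.04 (limma adjusted p = 0.987 and 0.971).

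NMI and IFI35 share a domain and form a complex with each other. NMI is known as a partner of STAT proteins, and both as regulators of innate signalling. NMI measured 797, 737 and 662 in the controls and 2727, 3219 and 2882 in IFNg. IFI35 measured 706, 828 and 751 in the controls and 4359, 4042 and 4233 in IFNg. Both were tight within groups, with coefficients of variation of 3.79% to 9.25%. NMI rose by 2.01 ± 0.14 on the log2 scale (limma adjusted p = 1.81e-06) and IFI35 by 2.47 ± 0.12 (8.2e-08), the smallest adjusted p of the 10 genes. Libraries 1 and 2 alone gave 1.95 and 2.46, and the libraries numbered 3 gave 2.12 and 2.49. The log2 ratio of IFI35 to NMI was 0.06 ± 0.20 in control and 0.52 ± 0.18 in IFNg (SD, n = 3 each), with no overlap between groups (2-sided exact permutation test, p = 0.1, the smallest possible here; 0.15 adjusted over 3 ratios).

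XAF1 binds XIAP and opposes its inhibition of caspases. It measured 7.50, 34.2 and 26.3 in the controls, from 7, 41 and 27 reads, and 1110, 1003 and 1837 in IFNg. Every IFNg library was at least 29.3 times the highest control. The XAF1 log2 difference was 5.98 ± 0.50 (limma adjusted p = 9.18e-06), and the ratio of group means was 58.1. Libraries 1 and 2 alone gave 5.93 and the libraries numbered 3 gave 6.07, although IFNg 3 had the highest level. Without control 1, the lowest control, the XAF1 log2 difference was 5.36 (adjusted p = 1.1e-05). XIAP itself did not pass, at 3831 ± 581 in control and 4691 ± 65.0 under IFNg (limma adjusted p = 0.230). XIAP was singled out after its values were seen.

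CMPK2 encodes a mitochondrial kinase of nucleoside monophosphates. Its controls measured 163, 74.3 and 134, and its IFNg libraries 767, 848 and 988. Control 2 was low and widened the control spread to 36.5% of the mean, against 12.9% in IFNg. CMPK2 rose by 2.86 ± 0.30 on the log2 scale (limma adjusted p = 8.82e-05), with 2.86 in libraries 1 and 2 alone and 2.87 in the libraries numbered 3. RSAD2, the antiviral enzyme viperin, lies beside it, and the RefSeq models overlap. It measured 2.14, 18.4 and 3.89 in the controls and 66.9, 18.6 and 88.0 in IFNg, so its highest control and lowest IFNg library were almost level. RSAD2 did not pass in limma (log2 difference 2.88 ± 0.88, adjusted p = 0.104), but did in DESeq2 (0.0412). Whether reads were assigned by strand is not given in the sources used here, so reads in the overlap cannot be told apart.

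RTP4 encodes a chaperone that helps membrane receptors reach the cell surface. RTP4 had 0, 26 and 1 reads in control 1, 2 and 3, or 0, 21.7 and 0.973 normalised counts. In IFNg it measured 489, 665 and 737. The control mean of 7.56 ± 12.3 therefore rested on control 2, yet the lowest IFNg library was 22.5 times that library. The RTP4 log2 difference was 7.45 ± 0.93 (limma adjusted p = 0.000355), rank 4 of the genes tested. It was 6.91 in libraries 1 and 2 alone and 8.55 in the libraries numbered 3, the widest gap of the 10 genes. It was 8.79 without control 2 and 6.54 without control 1, 6.24 in edgeR and 6.37 in DESeq2, and 5.38 in limma with 10 added. Its adjusted p stayed at or below 0.00519 without each library in turn. That p was 0.0581 in a variance model without a trend.

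LGALS3BP is a secreted glycoprotein that binds galectins, and was the most abundant of the 10. It measured 15658, 18507 and 16514 in the controls and 25192, 24175 and 22348 in IFNg. This was the smallest change, at 1.42 times the control mean, with the lowest IFNg library 1.21 times the highest control. LGALS3BP rose by 0.50 ± 0.09 on the log2 scale (limma adjusted p = 0.00736). The call was lost without IFNg 1 (adjusted p = 0.0664) or IFNg 2 (0.0545) and without a variance trend (0.124), whereas libraries 1 and 2 alone gave 0.54 (0.000918) and the libraries numbered 3 gave 0.44. Of its galectin ligands, LGALS3 was 1464 ± 177 and 916 ± 311 (limma adjusted p = 0.123) and LGALS1 was 62976 ± 3154 and 55155 ± 4583 (0.351). Both were singled out after their values were seen.

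Levels of different genes were compared per kb of annotated protein-coding exon (GENCODE 29), which ranged from 0.827 kb for IFI27 to 5.87 kb for IFI44L. In control the order was LGALS3BP (6555 ± 567 per kb), IFI35 (611 ± 49.3), NMI (451 ± 41.7), IFI6 (167 ± 37.0), IFI27 (138 ± 32.7), IFI44 (123 ± 19.6), CMPK2 (31.6 ± 11.5), XAF1 (6.25 ± 3.79), RTP4 (4.87 ± 7.89) and IFI44L (0). The library ranges of IFI6, IFI27 and IFI44 overlapped from each to the next in this order, as did those of XAF1, RTP4 and IFI44L. In IFNg the first 3 places were the same (9276 ± 559, 3377 ± 128 and 1813 ± 155 per kb). IFI44 (742 ± 73.4) was the fourth. RTP4 (406 ± 82.2) and XAF1 (363 ± 125) then overlapped in level with IFI6 (376 ± 70.3) and with IFI27 (486 ± 53.6). CMPK2 (222 ± 28.5) came next, and IFI44L was again last, at 18.7 ± 6.92 per kb. Which transcripts these cells use was not measured, so the lengths are approximate.

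**Figure D3:**
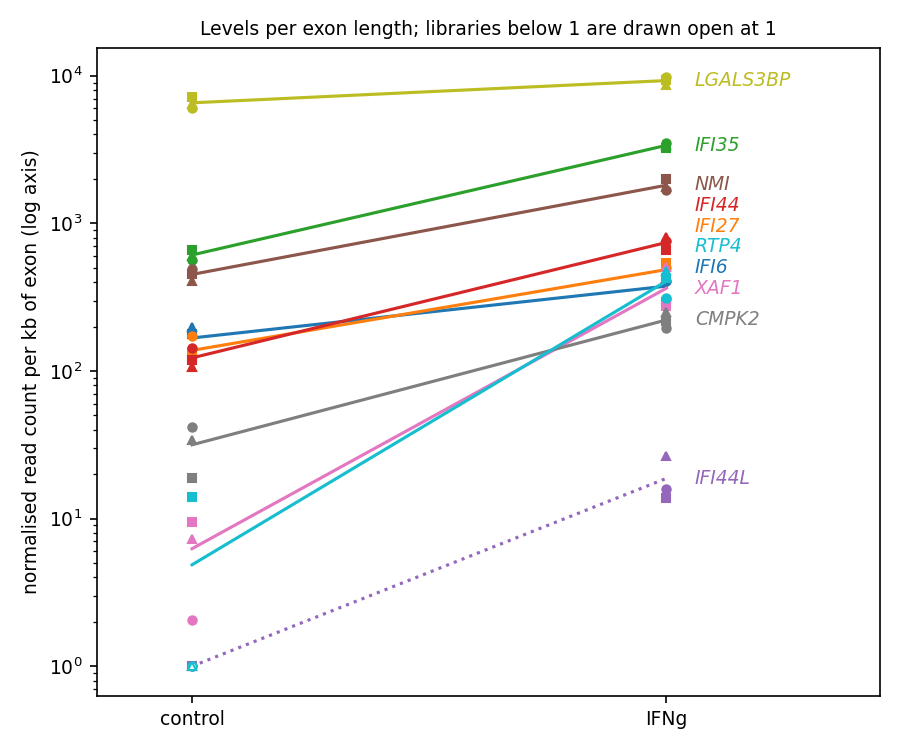
Normalised read count per kb of annotated exon (y axis, log scale) in control and IFNg for each gene. Symbols are libraries (circle 1, square 2, triangle 3) and lines join group means, dotted for IFI44L, whose control libraries had 0 reads, and libraries below 1 per kb are drawn open at 1. RTP4 and XAF1 start near 5 and 6 per kb and end beside IFI6, while LGALS3BP stays on top.

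The matched neighbours of the 10 genes did not pass in limma. Neighbours were matched by symbol only, so a gene measured under another symbol is passed over. Distances are not given, so some may lie far away. The nearest matched gene on each side, by RefSeq gene order, gave 18 genes outside the 10, of which 16 were testable. By limma 0 of the 16 were called in either direction, with 3 higher and 1 lower at an unadjusted p under 0.05, and their median log2 difference was 0.01. edgeR called 0 of 14 it could test, with 3 higher and 1 lower unadjusted. DESeq2 called 3 of 16, all higher: RSAD2, RBM43 and BCL6. Over all genes limma called 3.27% higher and DESeq2 4.67%, so the limma count of 0 is near its background, while the DESeq2 count is above its own. RBM43, beside NMI, measured 348, 441 and 391 in the controls and 625, 556 and 737 in IFNg, with no overlap between groups (log2 difference 0.70 ± 0.21, limma adjusted p = 0.0927, DESeq2 0.0227). BCL6, a transcriptional repressor gene near RTP4, was 3234 ± 1012 in control and 5469 ± 816 in IFNg (0.80 ± 0.21, limma adjusted p = 0.0530). BCL6 passed in DESeq2 (0.00243) and in limma without control 1 (0.0385), without control 3 (0.0292) or with libraries 1 and 2 alone (0.000730).

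**Figure D4:**
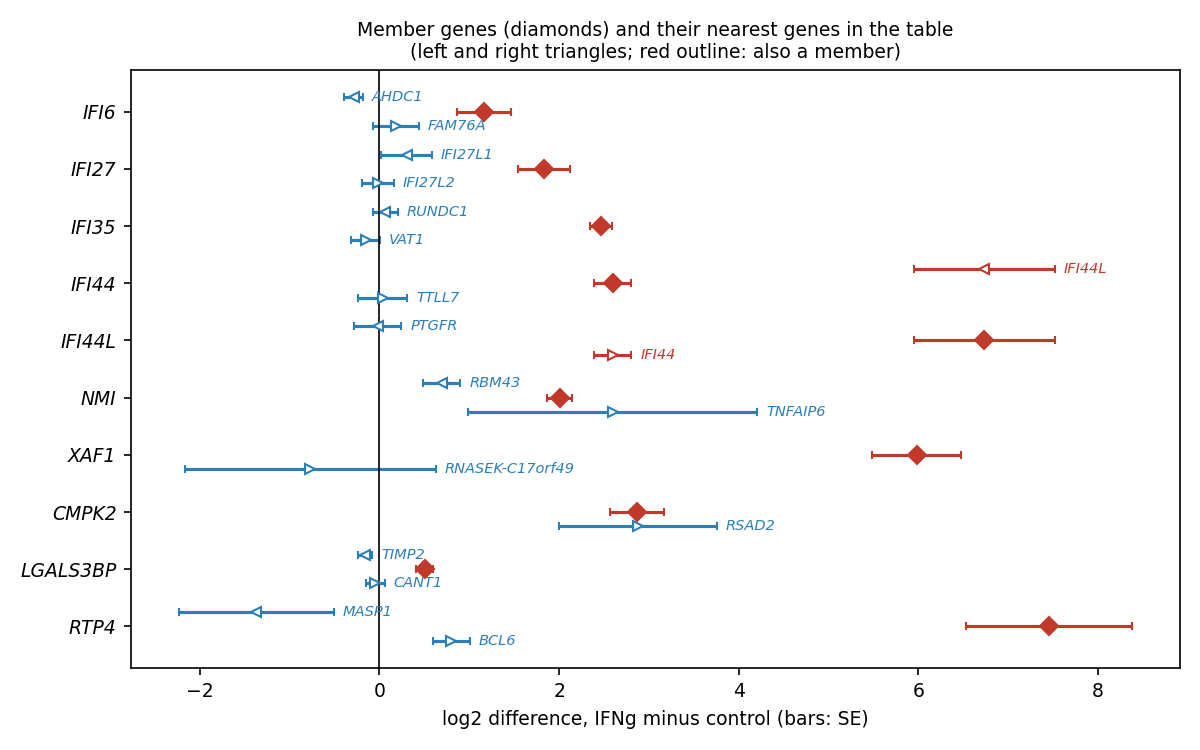
Log2 difference, IFNg minus control (x axis, bars are SE), for each of the 10 genes (red diamonds). Triangles are the nearest genes matched by symbol to its left and right, where testable (blue, or red where itself among the 10). Neighbours such as IFI27L2, RUNDC1, TTLL7 and CANT1 lie at 0 within their SE. Others, such as AHDC1 (-0.29 ± 0.11), RBM43 (0.70 ± 0.21) and BCL6 (0.80 ± 0.21), lie further from 0 than their SE. RSAD2 and TNFAIP6 lie near CMPK2 and NMI with wide SE, and did not pass (limma adjusted p = 0.104 and 0.505).

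The genes with the most similar profiles were found by the root mean square difference between log2 values over the 6 libraries, each less its own control mean. The control and IFNg groups make up most of that profile, and these libraries are shared by all genes. The antigen-processing protease gene PSMB8 (0.11) and the ubiquitin ligase gene TRIM21 (0.11) were nearest to IFI35, and TRIM22 (0.11) and the helicase gene DDX60 (0.14) to IFI44. ALPK1 (0.11) and DDX60L (0.13) were nearest to IFI27, PDCD1LG2 (0.12), which encodes PD-L2, and CCDC125 (0.13) to NMI, and GPR115 (0.09) and CEBPD (0.16) to IFI6. MPHOSPH6 and TIFA (0.03 each) were nearest to LGALS3BP, where small changes leave many close profiles. APOL2 (0.24) and FAM115C (0.29) were nearest to CMPK2, BANCR (0.31) and CACNA1I (0.42) to IFI44L, and IDO1 (0.50) and SLAMF8 (0.60) to XAF1. RTP4 had no close match, as its nearest genes, GBP5 and SLAMF8, differed by 1.17 and 1.18. None of the 20 places was taken by another of the 10 genes.

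Genes of the pathway moved in part with the 10. The lists that follow were chosen with earlier results of these data known, and over all genes tested limma called 3.27% higher and 1.05% lower. Of 19 measured receptors, kinases, STAT and IRF factors and inhibitors, 10 rose and 1 fell, with a median log2 difference of 0.71. IRF1 (5.62) and the feedback inhibitor SOCS1 (3.16) rose most. STAT2 and IRF9, parts of the ISRE-binding complex, rose by 2.14 and 2.77. TYK2, JAK1 and the phosphatase PTPN2 differed by -0.02, 0.02 and -0.04 (limma adjusted p of 0.921 to 0.968). The receptor chain IFNGR1 fell by 0.61 (adjusted p = 0.0356). That call was lost without each library except control 3, with adjusted p of 0.0818 (without IFNg 2), 0.113 (IFNg 3), 0.143 (IFNg 1), 0.150 (control 1) and 0.158 (control 2). It was also lost without a variance trend (0.199).

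Of 49 other interferon responders measured, 42 rose in limma, against 3.27% of all genes tested, with a median log2 difference of 2.19. None fell (0 by limma, edgeR and DESeq2, and 0 at an unadjusted p under 0.05 in each). The antiviral tether BST2 (6.51), EPSTI1 (5.90) and the lysosomal reductase gene IFI30 (5.46) rose most, EPSTI1 with an adjusted p of 0.000923 that became 0.0603 without a variance trend. IFITM2 (0.09), LY6E (0.15) and LAMP3 (0.28) did not pass. MX2 rose by 2.23 (adjusted p = 0.00985), a call lost without IFNg 3 (0.0539). Of 7 measured relatives of the 10 genes, 1 rose (3.27% over all genes), the mitochondrial adenylate kinase gene AK4 (0.59, adjusted p = 0.0281). That call was lost without IFNg 1 (0.0935), IFNg 3 (0.114), control 1 (0.128) or control 2 (0.158), and without a variance trend (0.253). CMPK1, the cytosolic relative of CMPK2, was 8889 ± 570 and 9167 ± 432 (limma adjusted p = 0.880), and the mitochondrial kinase gene DGUOK differed by 0.10 (0.789).

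Of 13 testable partners of the 10 proteins, 4 rose and 1 fell (3.27% and 1.05% over all genes), with a median log2 difference of 0.02. The galectin gene LGALS9 rose from 3.33 ± 2.18 to 166 ± 13.0 (limma adjusted p = 0.000238), although LGALS9 has close copies between which reads may be shared. MAX, the dimer partner of MYC, rose by 0.75 (0.00375, and 0.101 without a variance trend), and MYC, to which NMI is known to bind, fell by 0.93 (0.0339). The receptor gene TLR4 (0.56, 0.0275) and the chaperone gene FKBP5 (0.60, 0.0466) also rose. BIRC5, HTRA2 and BIRC3, of the caspase inhibitor system that XIAP belongs to, differed by 0.02, -0.08 and -0.14 and did not pass. The MYC call was lost without control 1 (0.173), control 2 (0.186), IFNg 1 (0.0911), IFNg 2 (0.0847) or IFNg 3 (0.143). That of FKBP5 was lost without control 1 (0.158), control 2 (0.234), IFNg 1 (0.0727), IFNg 2 (0.106) or IFNg 3 (0.168). That of TLR4 was lost without control 1 (0.122), control 2 (0.144), IFNg 1 (0.122) or IFNg 3 (0.114). Without a variance trend the limma adjusted p was 0.301 for MYC, 0.262 for FKBP5 and 0.219 for TLR4.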

How the data were processed

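Total RNA from 6 HT-1080 libraries (3 control, 3 IFNg) was depleted of ribosomal RNA and sequenced as stranded paired ends, per the labels' protocols. The builds hg19 and GRCh37 and the tools Cuffdiff 2.2.1, Cufflinks, TopHat2 2.0.13 and FastQC 0.11.3 are named in the submitters' processing notes, with no role. For the read counter and its strand setting nothing is given in the sources used here. What was deposited is a signal with 1 value per gene and library. Its table name says RPKM, but 100% of positive values in each library were whole multiples of 1 step (tolerance 0.001 reads). They are thus read counts over a size factor, equal to median-of-ratios factors. The main test was limma 3.58.1 (R 4.3.3) on log2(value + 1) with a variance trend, 2-sided, at a Benjamini-Hochberg adjusted p of 0.05. The filter kept the 15546 genes that reached 0.5 in 3 or more libraries and removed 1641. A larger pseudocount gave smaller log2 differences for IFI44L, RTP4 and XAF1. Against edgeR and DESeq2, limma gave a smaller log2 difference for IFI44L (6.73 against 9.80 and 9.29). It gave larger ones for RTP4 (7.45 against 6.24 and 6.37) and XAF1 (5.98 against 5.81 and 5.85). edgeR 4.0.16 on the recovered reads called 492 genes higher and 173 lower, and DESeq2 1.42.0 was also run. Ratios were tested with scipy 1.17.1. The limma step was tested on simulated data with smaller changes than those of IFI44L, RTP4 and XAF1, so changes of that size were not covered. All 10 genes were named, and in each list the 3 largest called changes, called genes against the common direction and the 3 smallest differences. STAT2, IRF9, MX2, TLR4 and FKBP5 were picked outside this rule. A gene that this rule names is not reported here. The genes and lists were chosen with earlier results of these data known. Promoter sequences come from RefSeq (GRCh38.p14), while the values come from hg19.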

Additional observations from a re-analysis of the deposited data

How the results depend on the processing

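All 10 genes kept their direction under all 16 alternatives, and 7 of them were called higher under each. The number called was 9 in limma and 7 to 10 under the alternatives, with IFI6, LGALS3BP and RTP4 the genes whose call changed. The IFI6 adjusted p ranged from 0.00491 to 0.196. The counts over all genes were less stable. Against 509 higher and 163 lower in limma, 279 and 41 were called without a variance trend and 882 and 599 without both libraries numbered 3, and DESeq2 called 339 lower. Leaving out each library in turn gave 330 to 847 higher and 37 to 455 lower genes. With the replicate number as a block, 915 genes were higher and 549 lower, and all 10 genes described here were called, IFI6 with an adjusted p of 0.0146. The labels do not say what a number shares, so the block was run only as an alternative. Deviations of same-numbered libraries from their group means correlated at 0.04, 0.02 and 0.11 across genes. Control 2 correlated almost equally with IFNg 1 (0.0216) and IFNg 2 (0.0209), so these values do not settle whether libraries were paired. Of the 88 testable related genes, 57 were higher (48 to 60 under the alternatives) and 2 lower, against 3.27% and 1.05% of all genes tested. The lower count was 0 without a variance trend (2 at an unadjusted p under 0.05) and 0 to 2 without each library in turn. The changes in the 3 ratios kept their direction under every alternative run. Depth limits IFI44L, RTP4 and XAF1 in control, where 0, 27 and 75 reads were counted over the group.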
